A study of Mus musculus with 12 samples.

Results

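The ATP-sensitive potassium channel subunits are encoded in the mouse by 4 genes, Kcnj11, Kcnj8, Abcc8 and Abcc9. They were taken by gene symbol from the deposited table of 17379 genes, and all 4 passed the filter on low counts that left 13849 genes for testing. Messenger RNA was sequenced from the hearts of 12 mice aged 6 months on a C57BL background, 3 in each of 4 groups. One group was nontransgenic, one carried 2 copies of a 25 bp deletion in MYBPC3 (cardiac myosin-binding protein C, a thick filament protein), and one was heterozygous for the S96A variant of HRC, a calcium-binding protein found in the sarcoplasmic reticulum. The compound mice were homozygous for the deletion and heterozygous for the variant. The nontransgenic and the deletion group each held 2 males (replicates 1 and 2) and 1 female (replicate 3), whereas all HRC variant and all compound mice were female. The labels call the mutants transgenic mice and do not say in the fields used here which promoter drives the HRC variant or how many lines were used. Where the labels do not state that replicates are separate animals, a p-value measures only the spread between these samples.

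An ATP-sensitive potassium (KATP) channel joins pore subunits of the Kir6 family with sulfonylurea receptors, which are ABC proteins without a known transport role. Intracellular ATP closes the pore and MgADP, acting on the receptor, opens it, so that the channel links the energy state of the cell to its membrane potential. In the mouse heart, ventricular muscle is known for channels of Kir6.2 and SUR2A, atrial muscle for Kir6.2 with SUR1, and smooth muscle and pericytes of the vessels for Kir6.1 with SUR2B.

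Kcnj11 (gene identifier 16514) encodes Kir6.2 and lies in the deposited table on chromosome 7 at 46093108 to 46100867 of GRCm38.p6. Its neighbour Abcc8 (20927), which encodes SUR1, spans 46104523 to 46180039 on the same chromosome, and 3570 bp separate the RefSeq gene models. Kcnj8 (16523), which encodes Kir6.1, lies on chromosome 6 at 142545018 to 142571647. Abcc9 (20928), which encodes SUR2 (the SUR2A and SUR2B forms are splice variants and are not separated by a count per gene), spans 142587862 to 142702767 on chromosome 6, 16247 bp from the RefSeq model of Kcnj8. GENCODE M21 places all 4 genes on the minus strand, while the table lists Kcnj8 and Abcc8 on the plus strand. The table's span for Kcnj8 is 26630 bp, against 6778 bp in RefSeq. Abcc8 and Abcc9 each overlap an antisense transcript of the annotation that is not listed in the table, and no source used here states whether the counting used strand. The longest identical run between transcripts of the pore genes was 21 bases, and between those of the receptor genes 23 bases.

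The RefSeq promoter table held 2 of the 4 genes, the neighbours Kcnj8 and Abcc9. Their promoters are printed because these genes lie side by side on the same strand and yet differ in base composition. Each sequence is the 250 bases before the start in that table, on the minus strand of GRCm38.p6, with the match to GGGCGG on either strand in capitals. The interval is chr6:142571615-142571864 for Kcnj8 and chr6:142702275-142702524 for Abcc9, whose start in this table lies inside the longer span of the deposited table.
Kcnj8: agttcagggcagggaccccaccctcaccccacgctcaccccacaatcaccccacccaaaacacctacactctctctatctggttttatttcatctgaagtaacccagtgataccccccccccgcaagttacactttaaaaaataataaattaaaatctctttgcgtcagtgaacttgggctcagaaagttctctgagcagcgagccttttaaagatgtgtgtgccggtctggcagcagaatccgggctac
Abcc9: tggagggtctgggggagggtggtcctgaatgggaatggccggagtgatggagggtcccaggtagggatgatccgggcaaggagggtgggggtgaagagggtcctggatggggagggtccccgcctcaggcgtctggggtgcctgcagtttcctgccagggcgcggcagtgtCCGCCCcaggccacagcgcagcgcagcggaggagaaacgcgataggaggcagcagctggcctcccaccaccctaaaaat
The GC content was 49.2% for Kcnj8 and 66.8% for Abcc9, against a median of 52.4% over 32851 promoters of the same length. Both strands were searched for the GC box GGGCGG, which occurs in 32.7% of these windows, the TATA box TATAAA (12.4%), the E-box CACGTG (6.02%), the forkhead motif GTAAACA (3.17%), a MEF2 site (2.92%) and a CArG box (1.47%). The Abcc9 window held GGGCGG once, read as CCGCCC on the printed strand, and none of the other motifs. None of the 6 motifs was found in the Kcnj8 window, which says only that these letters do not occur in it.

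Total counts ranged from 15615182 to 20581197 per library, and the values below are CPM (library-size-scaled counts, with TMM factors) unless TPM, which also divide by transcript length, are named. Of the genes that carry the alterations, Mybpc3 lay at 2460 to 2920 CPM in the deletion libraries, below the 3520 to 4890 CPM of the nontransgenic and the 3530 to 3920 of the compound libraries and overlapping with the 2900 to 3850 of the HRC variant ones. Hrc lay between 939 and 1380 CPM in all 12. A count per gene does not show the deleted bases or the changed residue, so these levels do not check the labels. The cause of the lower Mybpc3 level in the deletion than in the compound libraries, both homozygous for the deletion, was not tested. Cardiomyocyte markers were high in every library, at 48520 to 64770 CPM summed over 10 genes. Markers of atrial muscle, 16 of 16 in the table, stood apart in 4 libraries: they summed to 1219 to 1749 CPM in the 3 compound libraries and 1188 in HRC variant replicate 3, against 4769 to 12220 in the other 8. Among the defining atrial genes, Bmp10 was at 0 in at least 1 library and Myl7 ranged from 0.999 to 1350 CPM. Libraries also differed by transcript length: the median level of the longest 10% of tested transcripts less that of the shortest 10%, each gene taken relative to its mean over libraries, was -0.59 on the log2 scale in nontransgenic replicate 1 and -0.82 in deletion replicate 2, and -0.29 to 0.46 in the others. In these bulk samples, fewer cells of a type and less RNA per cell cannot be told apart.

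By length-scaled level, Kcnj11 was the most abundant subunit transcript, with a mean of 140.7 TPM over the 12 libraries, above 94.8% of all genes. Abcc9 followed with 99.7 TPM (92.8%), Kcnj8 with 32.4 TPM (80.4%) and Abcc8 with 23.35 TPM (74.8%). Kcnj11 exceeded Abcc9 in 12 of 12 libraries, by a ratio of 1.11 to 2.09, and Abcc9 exceeded Kcnj8 in 12 of 12, by 1.89 to 4.17. The lower neighbours in this order were not separated: Kcnj8 exceeded Abcc8 in 10 of 12 libraries, at ratios of 0.893 to 2.01.

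Kcnj11, the Kir6.2 pore, stood at 224, 220.3 and 259.7 CPM in the nontransgenic libraries and at 243, 183 and 253 CPM with the MYBPC3 deletion. The HRC variant libraries had 227, 232 and 266 CPM of Kcnj11, and the compound ones 289.7, 269 and 265 CPM. Group means were 235 ± 21.6, 226 ± 37.7, 242 ± 21.1 and 274.5 ± 13.4 CPM in that order (SD, n = 3). The 3 compound libraries were higher than all nontransgenic and all deletion libraries and overlapped with the HRC variant group, whose replicate 3 passed the lowest compound value. Deletion replicate 2 was the lowest of the 12. All compound mice were female, and the female library was the highest in both the nontransgenic and the deletion group.

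Kcnj8, the Kir6.1 pore of vascular cells, stood at 50.5, 34.6 and 34.7 CPM in the nontransgenic libraries and at 47.9, 44.5 and 41.7 CPM with the deletion. The HRC variant libraries had 40.0, 36.7 and 47.3 CPM and the compound libraries 46.4, 47.9 and 42.5 CPM. The means were 39.9 ± 9.175, 44.7 ± 3.09, 41.3 ± 5.39 and 45.6 ± 2.80 CPM (SD, n = 3). In CPM all 4 groups overlapped, and nontransgenic replicate 1 was both the highest library and far from the other 2 of its group. In TPM this library stood at 30.64, beside 28.1 and 27.68 in the rest of its group. The compound libraries stood at 33.98 to 37.07 TPM. How many of all genes set these groups apart by TPM was not counted, so no separation of Kcnj8 is read from these values. Pericyte markers, 14 of 14 in the table, summed to 1312 to 1406 CPM in nontransgenic, 1441 to 1566 in deletion, 1317 to 1476 in HRC variant and 1504 to 1553 in compound libraries. Their part in the level of Kcnj8 was not tested.

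Abcc8, the SUR1 receptor, stood at 62.4, 83.6 and 88.1 CPM in the nontransgenic libraries and at 54.3, 50.5 and 80.1 CPM with the deletion. The HRC variant libraries had 83.9, 75.2 and 57.0 CPM and the compound libraries 61.2, 60.0 and 73.1 CPM. The means were 78.0 ± 13.8, 61.65 ± 16.1, 72.0 ± 13.7 and 64.8 ± 7.25 CPM (SD, n = 3). Every mutant group overlapped with the nontransgenic one. In the 2 groups of both sexes the female library was the highest.

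Abcc9, the SUR2 receptor, stood at 322, 335 and 411 CPM in the nontransgenic libraries and at 335, 321.5 and 450.3 CPM with the deletion. The HRC variant libraries spread most, at 278, 496 and 544 CPM, and the compound libraries least, at 596, 574 and 607 CPM. The means were 356 ± 48.0, 369 ± 70.85, 439 ± 142 and 592 ± 17.1 CPM (SD, n = 3). All 3 compound libraries lay above all 9 others, which held for 1.18% of tested genes, with a further 1.29% below all 9. The 4 male libraries lay within 321.5 to 334.9 CPM, so the nontransgenic and deletion means rest mostly on males and the compound mean on females.

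**Figure D1:**
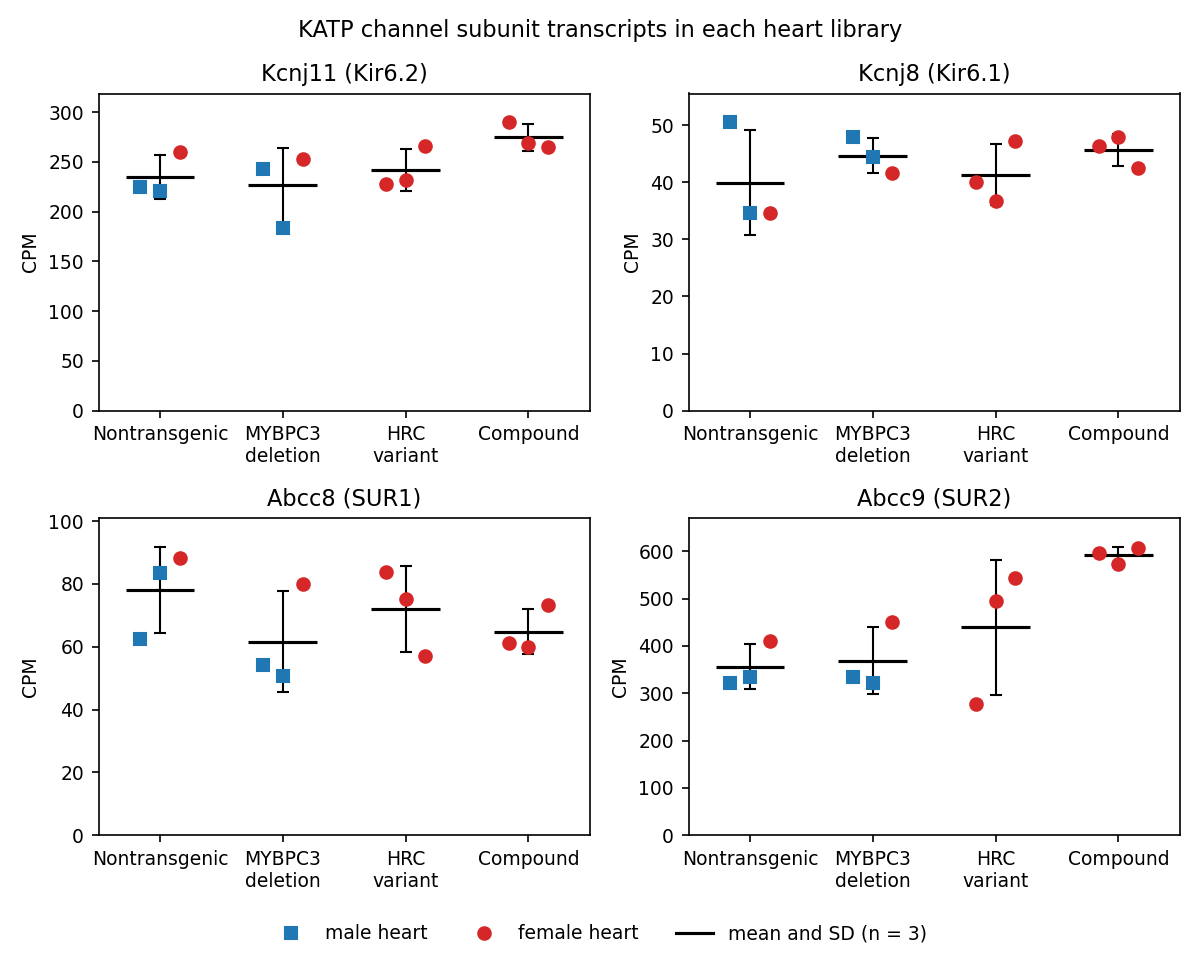
TMM-scaled CPM of each subunit gene (vertical axes, from 0) in the 4 groups; squares are male and circles female hearts, lines and bars the mean and SD of 3 libraries. Abcc9 in the compound libraries, at 574 to 607 CPM, lies above the other 9 libraries, while the groups overlap for Kcnj8 and Abcc8.

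The comparison of compound with nontransgenic hearts asks what both alterations together do. With sex as a term in the model, the fitted log2 difference was 0.48 for Abcc9 (SE 0.24, 95% interval -0.04 to 1.01, a fold of 1.40) and -0.56 for Abcc8 (SE 0.20, interval -0.99 to -0.13, a fold of 0.678). It was 0.35 for Kcnj8 (SE 0.18, interval -0.05 to 0.74) and 0.07 for Kcnj11 (SE 0.16, interval -0.27 to 0.41). The adjusted p of edgeR's quasi-likelihood test was 0.810 for Abcc9, 0.667 for Abcc8, 0.817 for Kcnj8 and 0.992 for Kcnj11, so none was called at an adjusted p under 0.05. The same test called 0% of the 13849 genes, while 881 genes (6.36%) had an unadjusted p under 0.05 and DESeq2 called 38 (0.275%). Abcc8 was the only subunit gene with an unadjusted edgeR p under 0.05 (0.0141). Its size depended on the sex term: without that term the Abcc8 difference was -0.27 (SE 0.20) in edgeR. The authors' deposited fold change was also -0.27, with a DESeq2 q-value of 0.652. Without overlap in CPM between the groups, Abcc9 and Kcnj11 were 2 of 4 members higher, against 8.79% of all genes higher and 10% lower. This count takes no account of sex.

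The call for Abcc9 depended on the model. In the authors' deposited table Abcc9 had a log2 fold change of 0.74 with a q-value of 4.42e-06 for compound against nontransgenic and of 0.70 with a q-value of 0.00056 for compound against deletion. That table called 2.43% and 4.24% of its genes in these pairs at a q-value under 0.05, and its q-values for the other 3 genes were 0.312 or more in these pairs. In its other 3 pairs, which called 0.389%, 0.0945% and 0.0775% of genes (compound against HRC variant, and deletion and HRC variant against nontransgenic), none of the 4 genes had a q-value under 0.05. DESeq2 fitted without the sex term, to the groups compared alone and without a filter, gave 0.74 (adjusted p = 3.73e-06, with 3.16% of genes called) and 0.70 (adjusted p = 0.000513, with 5.23% called). In the other 3 pairs this fit called 0.524%, 0.155% and 0.0991% of genes and none of the 4. With edgeR under the same choices except the filter, the adjusted p was 0.05001 and 0.0641. Without the sex term over all 12 libraries, the difference against nontransgenic hearts was 0.74 with DESeq2 (adjusted p = 0.0787) and 0.73 with edgeR (adjusted p = 0.379). With the female libraries alone, which leaves 1 nontransgenic library that is assumed to vary like the others, the edgeR difference was 0.53 (SE 0.33, adjusted p = 0.903).

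Compound hearts were also set against each single alteration, which asks what the second alteration adds. Against the deletion, the fitted log2 difference was 0.44 for Abcc9 (SE 0.24, interval -0.08 to 0.96), -0.20 for Abcc8 (SE 0.19), 0.18 for Kcnj8 (SE 0.18) and 0.13 for Kcnj11 (SE 0.16). The edgeR adjusted p lay between 0.891 and 0.969 for the 4 genes, and 0% of genes were called, with 794 (5.73%) at an unadjusted p under 0.05 and 6 (0.0433%) called by DESeq2. Abcc9 and Kcnj11 were higher in all compound than in all deletion libraries, where 11.5% of all genes were higher in this sense and 13.7% lower. Against the HRC variant, a comparison within females, Abcc9 differed by 0.43 (SE 0.19, interval 0.01 to 0.85) with an unadjusted edgeR p of 0.0452 and an adjusted p of 0.778. Without HRC variant replicate 1, the library with the lowest Abcc9, this difference was 0.18 (SE 0.12). The other differences were 0.18 for Kcnj11 (SE 0.13), 0.14 for Kcnj8 (SE 0.15) and -0.15 for Abcc8 (SE 0.16). Here edgeR called 0%, with 872 genes (6.3%) at an unadjusted p under 0.05, and DESeq2 called 45 (0.332%). Abcc9 was higher without overlap, as were 6.2% of all genes, with 6.22% lower.

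The single alterations were compared with the same nontransgenic libraries, so these differences share their control values with each other and with the compound comparison. With the MYBPC3 deletion, Abcc8 differed by -0.36 (SE 0.16, interval -0.71 to -0.01) with an unadjusted edgeR p of 0.0433 and an adjusted p of 0.597. Without nontransgenic replicate 2 it was -0.21 (SE 0.16). Kcnj8 differed by 0.17 (SE 0.15), Kcnj11 by -0.05 (SE 0.13) and Abcc9 by 0.04 (SE 0.19). No gene was called by edgeR (0%), 1130 (8.16%) had an unadjusted p under 0.05, and DESeq2 called 92 (0.963% of the 9549 genes to which it gave an adjusted p). None of the 4 genes separated the deletion from the nontransgenic libraries without overlap, against 4.9% of all genes higher and 5.5% lower. With the HRC variant, Abcc8 differed by -0.41 (SE 0.20, interval -0.84 to 0.02, edgeR adjusted p = 0.811), Kcnj8 by 0.20 (SE 0.18), Kcnj11 by -0.11 (SE 0.16) and Abcc9 by 0.05 (SE 0.24). Again edgeR called 0%, with 863 genes (6.23%) at an unadjusted p under 0.05, and DESeq2 called 25 (0.181%). None of the 4 separated these groups either, against 4.18% of all genes higher and 3.76% lower. Without nontransgenic replicate 3 the Abcc8 difference was -0.62 (SE 0.30), and without the sex term it was -0.12 (SE 0.20). Without HRC variant replicate 3 the Abcc9 difference was -0.15, without replicate 2 it was -0.05, and without nontransgenic replicate 3 it was -0.02, so its sign rested on single libraries.

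The interaction, in which both single differences are subtracted from the compound one, asks whether the alterations add up on the log2 scale. It was 0.39 for Abcc9 (SE 0.28, interval -0.21 to 0.98), 0.24 for Kcnj11 (SE 0.18), 0.21 for Abcc8 (SE 0.23) and -0.03 for Kcnj8 (SE 0.21). Leaving out single libraries moved it from 0.14 (without HRC variant replicate 1) to 0.595 (without HRC variant replicate 3) for Abcc9, from 0.14 (without deletion replicate 2) to 0.36 (without deletion replicate 1) for Kcnj11, and from 0.0657 (without nontransgenic replicate 2) to 0.33 (without HRC variant replicate 1) for Abcc8. The edgeR adjusted p was 0.710 to 0.982 for these genes. No gene passed in edgeR (0%), 1183 (8.54%) had an unadjusted p under 0.05, and DESeq2 called 50 (0.864% of the 5790 genes to which it gave an adjusted p).

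Sex entered these fits as a term estimated from the nontransgenic and deletion groups. Female less male libraries differed by 0.44 for Abcc8 (SE 0.17, edgeR unadjusted p = 0.021, adjusted p = 0.314), 0.39 for Abcc9 (SE 0.20, adjusted p = 0.389), 0.24 for Kcnj11 (SE 0.13, adjusted p = 0.422) and -0.22 for Kcnj8 (SE 0.16, adjusted p = 0.518). Of all genes, 1975 (14.3%) had an unadjusted p under 0.05 between the sexes and 8 (0.0578%) were called by edgeR, and none of the 4 was among them.

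**Figure D2:**
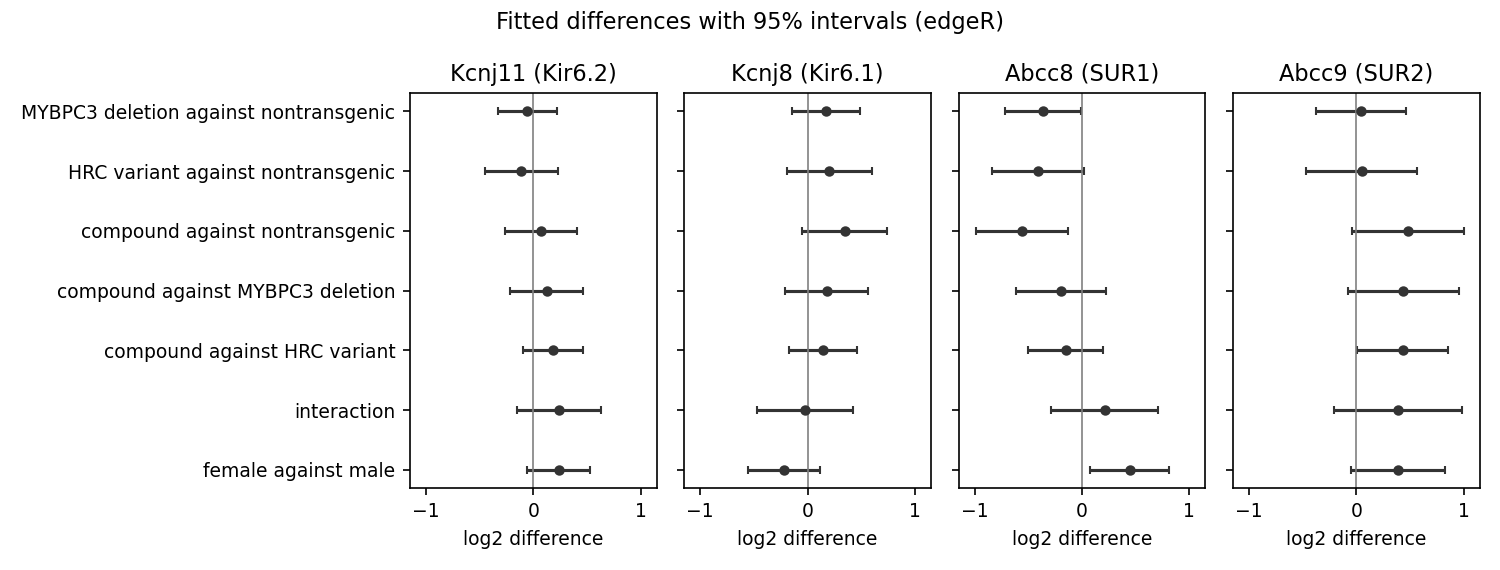
Fitted log2 differences from edgeR (horizontal axes) with 95% intervals for each subunit gene in the 6 genotype comparisons and between the sexes. The points of Abcc9 lie to the right of 0 and those of Abcc8 to the left in the comparisons of compound hearts, and most intervals include 0.

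Because a channel needs both a pore and a receptor, the mix of subunit transcripts was computed within each library from TPM. Abcc8 made up 22.4%, 27.3% and 24.3% of the receptor transcripts (Abcc8 plus Abcc9) in the nontransgenic libraries and 19.4%, 18.8% and 21.0% with the deletion. Its share was 31.0%, 18.3% and 13.3% in the HRC variant libraries and 13.3%, 13.5% and 15.3% in the compound ones. Compound libraries were thus below all nontransgenic and all deletion libraries, while HRC variant replicate 3 matched them. The mean share was 24.7 ± 2.44% in nontransgenic and 14.1 ± 1.08% in compound hearts (SD, n = 3), a difference of -10.6 percentage points (exact two-sided permutation test, p = 0.1, the smallest that 3 against 3 allows, adjusted p = 0.3 over 15 comparisons of the mix). The difference of compound from deletion hearts was -5.68 points and that of deletion from nontransgenic hearts -4.93 points, each without overlap and with the same exact permutation p of 0.1 and adjusted p of 0.3.

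In the pore mix, Kcnj8 made up 15.2% to 22.9% of the pore transcripts (Kcnj8 plus Kcnj11) in nontransgenic, 18.1% to 23.2% in deletion, 17.8% to 19.3% in HRC variant and 17.5% to 19.0% in compound libraries. All groups overlapped, and the exact permutation p was 0.2 or more in each of the 5 comparisons (adjusted p 0.5 or more). The ratio of Kcnj11 to Abcc9, the pore and receptor of the ventricular channel, was 1.78, 1.67 and 1.60 in nontransgenic and 1.875, 1.53 and 1.42 in deletion libraries. In HRC variant libraries it was 2.09, 1.18 and 1.225, and in compound ones 1.24, 1.21 and 1.11. Compound ratios lay below all nontransgenic and deletion ratios (each exact permutation p = 0.1, adjusted p = 0.3) and overlapped with those of the HRC variant. The permutation tests of the mix took no account of sex, and all compound mice were female. The female library had the lowest ratio in both the nontransgenic (1.60) and the deletion group (1.42), and the part of sex was not tested.

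**Figure D3:**
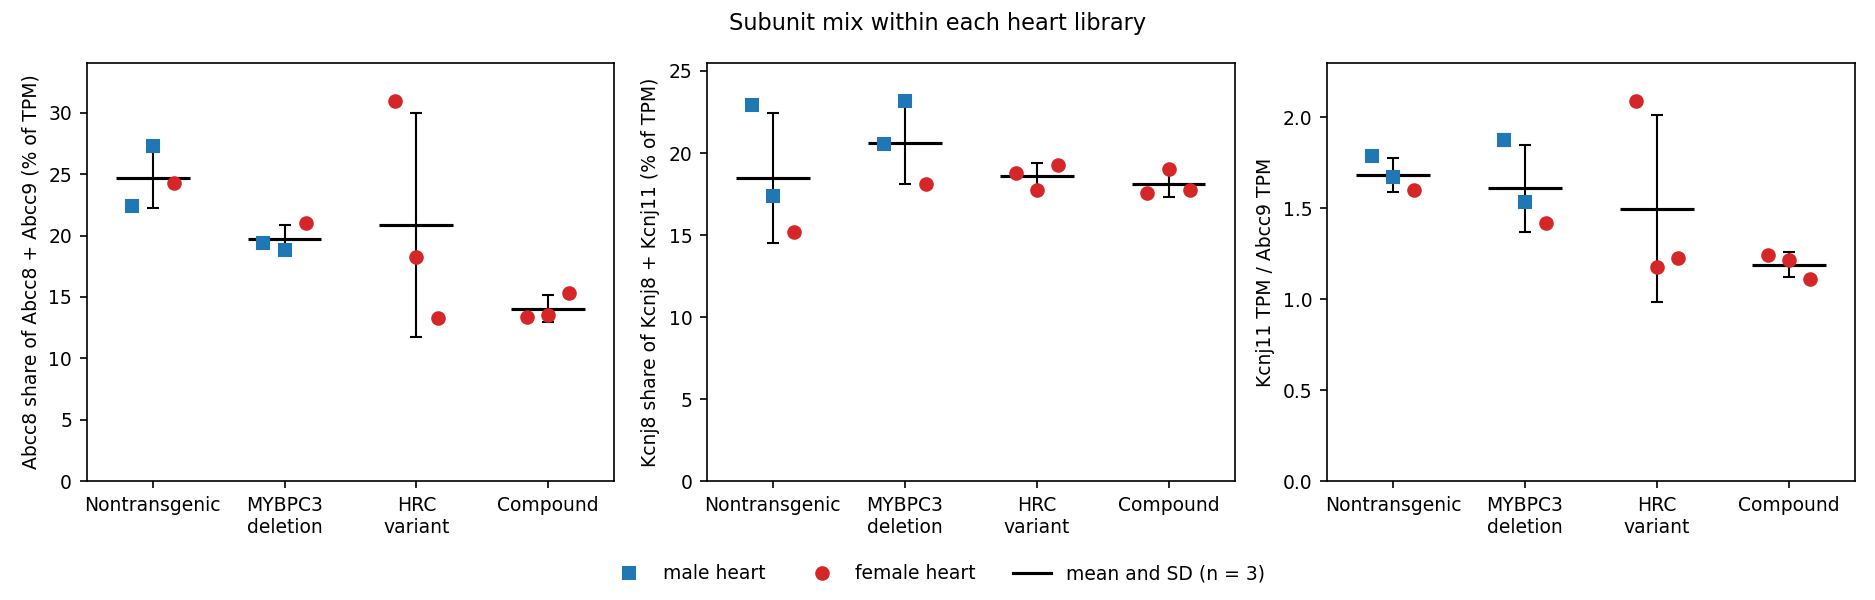
Subunit mix from TPM in each library: the Abcc8 share of receptor transcripts (left), the Kcnj8 share of pore transcripts (middle) and the ratio of Kcnj11 to Abcc9 (right); squares are male and circles female hearts, lines and bars the mean and SD of 3 libraries. The compound libraries hold an Abcc8 share of 13.3% to 15.3%, and HRC variant replicate 3 falls at the same level.

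The receptor mix moved together with the atrial markers across libraries. HRC variant replicate 1 had 11960 CPM of atrial markers, an Abcc8 share of 31.0% and 278 CPM of Abcc9. Replicate 3 of the same group had 1188 CPM of atrial markers, a share of 13.3% and 544 CPM of Abcc9, and replicate 2 lay between them on all these measures. All 16 atrial markers were lower in compound than in nontransgenic hearts by sign (median log2 difference -2.47, none called by edgeR). With the atrial level of each library as a covariate, the compound against nontransgenic difference was 0.05 for Abcc9 (SE 0.28), -0.07 for Abcc8 (SE 0.19), -0.05 for Kcnj11 and 0.05 for Kcnj8. The differences of Abcc9, Abcc8 and Kcnj8 were thus smaller in size than without the covariate. With the covariate, the difference of compound hearts from the deletion was 0.03 for Abcc9 and 0.26 for Abcc8 (SE 0.27 and 0.19). From the HRC variant it was 0.23 and 0.13 (SE 0.20 and 0.14). The compound group holds no library with a high atrial level, and outside it only HRC variant replicate 3 has a low one. The atrial level and the compound genotype therefore cannot be told apart. Ventricular markers, 8 of 8 in the table, were higher by sign in 6 of 8 against nontransgenic (median 0.38), 8 of 8 against deletion (0.30) and 8 of 8 against HRC variant hearts (0.21). Smooth muscle markers, 8 of 8 in the table, summed to 541.4 to 706.9 CPM in compound, 624.8 to 1189 in nontransgenic, 747.8 to 2188 in deletion and 642 to 1116 in HRC variant libraries. The part of the ventricular and smooth muscle markers in the levels of Abcc9 and Kcnj8 was not tested.

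**Figure D4:**
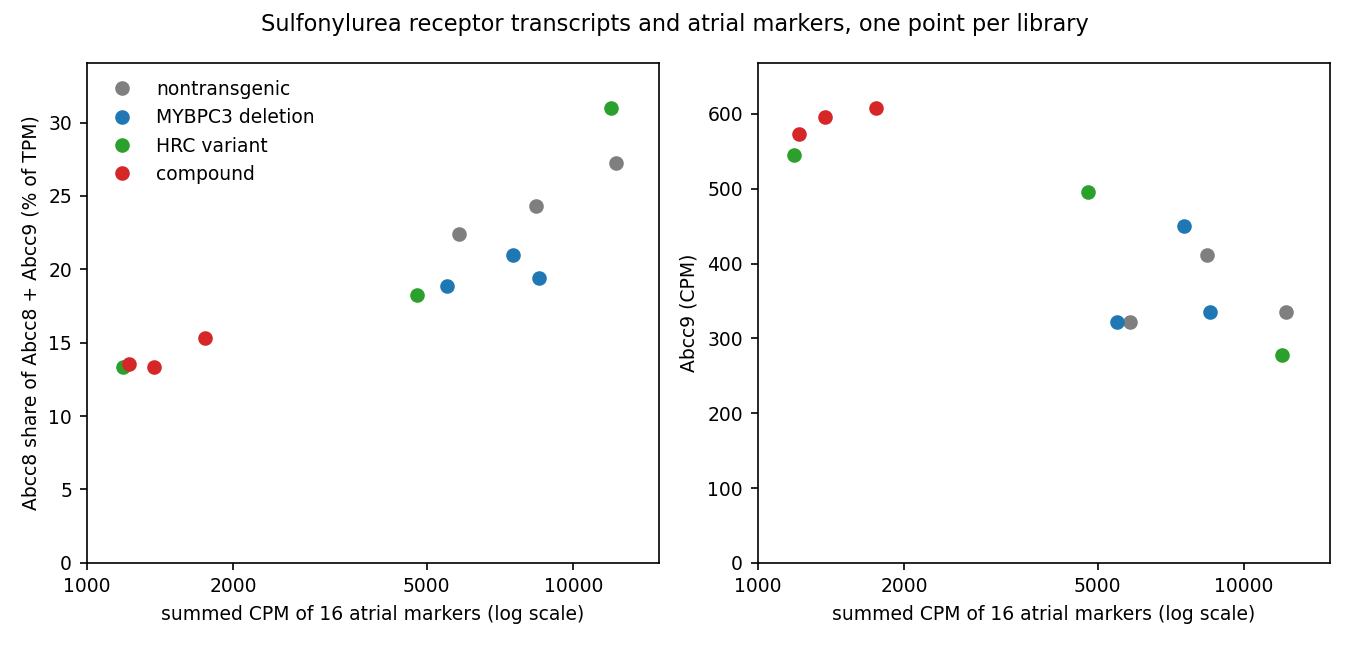
Abcc8 share of receptor transcripts (left, percent of TPM) and Abcc9 level (right, CPM) against the summed CPM of 16 atrial markers on a log axis, with 1 point per library. The 4 libraries with 1188 to 1749 CPM of atrial markers, 3 compound and 1 HRC variant, have the lowest Abcc8 shares and the highest Abcc9 levels.

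The 4 transcripts were compared with each other over the 12 libraries on log2 CPM, in 6 pairs. Kcnj11 and Abcc9 varied together (Pearson r = 0.761, permutation p = 0.0027, adjusted p = 0.0081; Spearman rho = 0.832, adjusted p = 0.00876). The correlation was 0.794 without the 2 libraries farthest from the Kcnj11 median, 0.391 on residuals from the group and sex means and 0.746 in the 8 female libraries. The permutations shuffled all 12 libraries across groups and sexes, and no p was computed on residuals. In CPM, Kcnj8 and Abcc8 varied in opposite directions (r = -0.815, permutation p = 0.00177, adjusted p = 0.0081; rho = -0.755, adjusted p = 0.0173), with -0.71 without the 2 farthest libraries, -0.73 on residuals and -0.88 in females. No correlation was computed on TPM, so the opposite direction is shown for CPM only and may depend on the scaling. By TPM, deletion replicate 2 was the lowest of the 12 libraries for both genes, with 27.63 TPM of Kcnj8 and 13.88 TPM of Abcc8. The genomic neighbours did not pass: r was 0.134 for Kcnj11 and Abcc8 and 0.152 for Kcnj8 and Abcc9 (permutation test, each adjusted p = 0.776). The remaining pairs did not pass either, with the same adjusted p in that test. For Abcc8 and Abcc9 r was -0.0896, with -0.46 on residuals and -0.706 in females. For Kcnj11 and Kcnj8 it was 0.158, with 0.442 on residuals and 0.61 in females. The points share library composition: the 2 libraries with the lowest levels of long transcripts, nontransgenic replicate 1 and deletion replicate 2, had 62.4 and 50.5 CPM of Abcc8, 322 and 321.5 CPM of Abcc9 and 50.5 and 44.5 CPM of Kcnj8. Abcc9 is longer than 95% of tested transcripts with a known length, Abcc8 than 83.2%, Kcnj11 than 52.3% and Kcnj8 than 35.4%, and the part of length in these correlations was not tested.

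Among 11608 genes, those most like each subunit by Pearson correlation over the same 12 libraries are given as a description. Kcnj11 was most like Adrb1, the beta-1 adrenergic receptor (r = 0.956), followed by Pskh1 (0.954), Drosha, a microRNA-processing nuclease (0.95), Scmh1 (0.944) and Lclat1 (0.942). Kcnj8 was most like Asb12 (0.928), Rdm1 (0.922), Dguok, a mitochondrial deoxynucleoside kinase (0.906), Sdhc, a subunit of succinate dehydrogenase (0.903), and Bckdk (0.892). Abcc8 was most like Sh3d19 (0.929), Epb41l2 (0.921), Plcl1 (0.921), Adarb1, an RNA-editing enzyme (0.92), and Plxna4 (0.897). Abcc9 was most like Asb15 (0.954), Atp8a1 (0.954), Ablim1 (0.944), Cyfip2 (0.943) and Etl4 (0.942), while Kcnj11 ranked 709 by its likeness to Abcc9.

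Other genes around the channel were read from fixed lists, none of whose tested members was called by edgeR in any of the 6 genotype comparisons. In compound against nontransgenic hearts, 2 of 8 tested other inward rectifier pores (13 in the list) were higher by sign, with a median log2 difference of -0.40, against 6884 of 13849 genes higher and a median of 0.00 over all. The smallest unadjusted p-values were those of Kcnj3, a pore of the atrial acetylcholine-gated channel, at -1.18 (SE 0.44), Kcnj12, a Kir2 pore, at -0.58 (SE 0.23), Kcnj5, the partner of Kcnj3, at -0.69 (SE 0.36), and Kcnj2, the main pore of the ventricular inward rectifier current, at 0.44 (SE 0.24). Kcnj3 and Kcnj5 also belong to the atrial markers and Kcnj12 to the ventricular ones. Kcnj12 differed by -0.77 (SE 0.19) with the deletion and by -0.68 (SE 0.23) with the HRC variant, with an edgeR adjusted p of 0.346 and 0.683.

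Of the other ABCC transporters, the family of the receptors, 5 of 9 were tested and 4 were higher by sign, with a median of 0.19. Abcc5, a nucleotide exporter, stood at 0.35 (SE 0.20) and Abcc4, an exporter of cyclic nucleotides, at -0.15 (SE 0.15). Of 20 genes listed as possible channel partners and regulators 13 were higher by sign, with a median of 0.03. The smallest unadjusted p-values among them were those of Kcnip1 at 1.05 (SE 0.71), Ank3, an ankyrin, at -0.28 (SE 0.19), and Prkce, a protein kinase C, at 0.19 (SE 0.16). Ank2, the ankyrin that anchors Kir6.2 at the membrane, stood at 0.06 (SE 0.24).

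The enzymes that set the ATP and ADP seen by the channel went in both directions in compound hearts: 10 of 17 genes of phosphate transfer and glycolysis were higher by sign, with a median of 0.01. Slc25a5, an ADP/ATP carrier of the inner mitochondrial membrane, stood at -0.46 (SE 0.17) and Ckb, the brain-type creatine kinase, at -0.35 (SE 0.18), with edgeR adjusted p-values of 0.672 and 0.817. With the deletion, 16 of 17 of these genes were lower by sign, with a median of -0.22, against a median of -0.005 over all genes, with Slc25a5 at -0.38 (SE 0.14) and Ckb at -0.38 (SE 0.15). In the same comparison 9 of 10 cardiomyocyte markers were lower by sign (median -0.25) and 7 of 8 smooth muscle markers higher (median 0.80). The summed smooth muscle markers were 2188 CPM in deletion replicate 1, but 814.9 and 747.8 in replicates 2 and 3. The latter values lay within the nontransgenic range of 624.8 to 1189 CPM. The part of both marker sets in the values of the energy genes was not tested. Of 12 tested transcription factors, 2 were higher by sign in compound hearts, with a median of -0.10. Foxo3, a forkhead factor, stood at -0.33 (SE 0.20) there and at -0.75 (SE 0.20) with the HRC variant, where its edgeR adjusted p was 0.605.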

How the data were processed

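Messenger RNA of 12 mouse hearts was measured, 3 per group. The authors deposited 1 table with expected counts per gene and sample (94.3% whole numbers, no tolerance), TPM per sample, and, for pairs of groups, their own log2 fold changes with DESeq2 q-values, per the file headers. HISAT, Bowtie2, DESeq2 and GRCm38.p6 are named in the submitters' processing notes. Versions, roles and the counting rule were not given in the sources used here. Of 17380 lines, 1 held no values and was dropped, and 25 symbols turned into dates were restored from RefSeq identifiers.

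Counts were rounded and fitted with edgeR 4.0.16 in R 4.3.3: TMM scaling, edgeR's filter with a minimum count of 10 (13849 genes kept, 3530 removed), and a robust quasi-likelihood model of group and sex over all 12 libraries with 7 residual degrees of freedom. The common biological coefficient of variation was 21.5%. P-values were adjusted by Benjamini-Hochberg over all tested genes. The percentages called by DESeq2 are of the genes to which it gave an adjusted p, which differ in number between comparisons. Subunit mixes used the deposited TPM and exact permutation tests without a sex term. Correlations used 100000 resamples. Alternatives changed the sex term, the libraries, the tool (DESeq2 1.42.0), scaling, filter, replicate block, atrial covariate and each library.

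All 4 subunit genes are named in every comparison; of each other list, up to 4 genes with the smallest unadjusted p are eligible, besides the list's counts and median. Ank2 falls outside that rule and was named after its value was seen. Members, lists, the atrial covariate and tests were chosen with earlier results of these data known. The comparison of the sexes, the Kcnj11 to Abcc9 ratio, the female-only fit and the fits without the sex term that also change the tool or the libraries were added after seeing the data. Replicate numbers were not taken as pairs: 5 of 18 same-numbered pairs correlated above 0.1 in their deviations from group means. With 3 libraries per group, and sex tied to the replicate number in the nontransgenic and deletion groups, these correlations cannot exclude pairing.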

Additional observations from a re-analysis of the deposited data

How the results depend on the processing

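Of 276 fitted differences of the 4 genes under alternatives that kept every library of the groups or the females, 259 kept their direction and side of the threshold, 2 became called and 15 changed sign. The 2 were Abcc9 against nontransgenic (0.74) and against deletion hearts (0.70) with DESeq2 without the sex term, only the groups compared and no filter. Sign changes, all at an adjusted p far above 0.05, were as follows. With the atrial covariate, in compound hearts Abcc8 was 0.13 against the HRC variant and 0.26 against the deletion, Kcnj8 -0.0225 and -0.11, Kcnj11 was -0.0499 in compound against nontransgenic hearts and Abcc9 -0.18 in HRC variant against nontransgenic hearts. Without the sex term, Abcc8 against the deletion was 0.0710 with edgeR, 0.0664 with edgeR on the groups compared alone, 0.0807 with DESeq2 over all 12 libraries and 0.0878 with DESeq2 on the groups alone. In the same order, Kcnj11 in HRC variant against nontransgenic hearts was 0.0422, 0.0437, 0.0379 and 0.0372. In females alone the Abcc8 interaction was -0.0226. The replicate block gave 0.68 for Abcc9 (adjusted p = 0.724) and -0.61 for Abcc8 in compound against nontransgenic hearts, called 1 gene in the interaction and changed no other call. The numbers did not pair the libraries, so this fit is only a check.

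Counts of genes called, 0 in each main comparison, moved as follows, in the order deletion, HRC variant and compound against nontransgenic, compound against deletion, compound against HRC variant. DESeq2 called 92, 25, 38, 6 and 45, and 50 in the interaction. DESeq2 without the sex term called 44, 22, 153, 232 and 35 over all 12 libraries (14 in the interaction) and 15, 15, 447, 762 and 74 on the groups alone without a filter. With edgeR on the groups alone, counts were 1, 15 and 57 with the sex term (deletion and compound against nontransgenic, compound against deletion) and 1, 74 and 191 without it.

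Leaving out each library in turn called none of the 4 genes (lowest adjusted p 0.212) and reversed 10 of 288 differences. In deletion against nontransgenic hearts Kcnj11 ranged from -0.18 to 0.0496 and was positive without deletion replicate 2. The Kcnj8 interaction ranged from -0.19 to 0.12, positive without compound 3, HRC variant 3, deletion 3, or nontransgenic 2 or 3. Abcc8 in compound against deletion hearts ranged from -0.30 to 0.0296, positive without deletion replicate 3. Abcc9 in HRC variant against nontransgenic hearts ranged from -0.15 to 0.30. In compound against nontransgenic hearts Abcc9 ranged from 0.41 to 0.53 and Abcc8 from -0.77 to -0.44. The counts of genes called ranged from 0 to 8 in HRC variant against nontransgenic hearts (8 without HRC variant 1, 1 without compound 3), 0 to 13 in compound against HRC variant (13 without HRC variant 3, 4 without HRC variant 1), 0 to 3 in compound against nontransgenic (3 without HRC variant 3, 1 without nontransgenic 1) and 0 to 5 in the interaction (5 without HRC variant 1).

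Without division by length, the mean Abcc8 share was 17.95%, 14.2% and 9.85% in nontransgenic, deletion and compound libraries. Correlations of pairs that did not pass changed sign: Kcnj11 with Abcc8 was -0.31 on residuals, -0.28 without 2 libraries and -0.63 in females, and Kcnj8 with Abcc9 was -0.0163 without 2 libraries. The causes of these changes were not tested. Each group held 3 libraries and sex was confounded with genotype in part, and whether Abcc9 was called depended on the model.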
